A study of Mus musculus with 16 samples.

Results

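The genes described here encode plasma proteins that hepatocytes secrete: clotting factors, anticoagulant and fibrinolytic proteins, other protease inhibitors with their carriers, and complement proteins. They are a list of 46 gene symbols set by function, though the list was chosen with earlier results of these data known. Of these, 44 had a probe on the array that names that 1 gene, and C3 and C4b had none. A gene entered the tests when a probe of it gave a detection p under 0.01 on at least 2 of the 16 arrays, which 34 of the 46 did, among 7746 genes in all. The other 10 with a probe were F5, Fgb, Fgg, Plg, Serpina6, Serpinc1, C6, C8a, C8b and C8g. Of these 10, C8b and C8g were above background on 1 array each and the other 8 on none.

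Expression was measured on Illumina bead arrays in primary hepatocytes, the main cell type of liver, isolated from C57BL/6 mice 6 to 8 weeks of age and cultured. All cells had been infected with an adenovirus. The shHDAC45 cells received virus carrying shRNAs against Hdac4 and Hdac5, class IIa histone deacetylases that shuttle between nucleus and cytoplasm, and the GFP cells received a control virus, named shGFP in the design text and GFP in the sample titles. Both kinds of cell were then given forskolin, an activator of adenylyl cyclase whose product cAMP is also the messenger of glucagon, or DMSO as the vehicle, and the series title poses the question of what these deacetylases do in hepatic glucose production. The 8 groups, with 2 arrays each (letters A and B), were shHDAC45 with forskolin for 4 h, shHDAC45 with forskolin for 2 h, shHDAC45 with DMSO for 4 h, shHDAC45 with DMSO for 2 h, GFP with forskolin for 4 h, GFP with forskolin for 2 h, GFP with DMSO for 4 h and GFP with DMSO for 2 h. No uninfected cells and no second control virus are among these samples, and the knockdown is of both genes together. Whether arrays A and B were hybridised with RNA of different cultures is not stated, so the p-values measure only array-to-array spread, which may be technical. Differences are in log2 of normalised signal, where 1 is a doubling, tested with limma over all 7746 genes with Benjamini-Hochberg adjustment and a threshold of 0.05.

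Hepatocytes make most of the proteins of blood clotting and complement. In clotting, proteases such as factors XII, XI, IX and X cut one another in sequence until thrombin cuts fibrinogen to fibrin, and protease inhibitors of the serpin family stop each step. Complement is a second protease cascade, which marks microbes and opens their membranes. In liver many of these genes depend on the transcription factors HNF1 and HNF4, and several are acute-phase genes that respond to inflammatory cytokines.

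The promoters of the 4 genes with the largest falls in shHDAC45 cells, Vtn and 3 copies of Serpina1, and of F11, the gene that moved the other way, are shown so that their letters can be set beside those values. Each runs 5′ to 3′ from 250 bases before to 50 bases after the annotated start (RefSeq, GRCm38.p6), and capitals mark the match described after the sequences.
Vtn promoter, chr11:78498870-78499169, plus strand: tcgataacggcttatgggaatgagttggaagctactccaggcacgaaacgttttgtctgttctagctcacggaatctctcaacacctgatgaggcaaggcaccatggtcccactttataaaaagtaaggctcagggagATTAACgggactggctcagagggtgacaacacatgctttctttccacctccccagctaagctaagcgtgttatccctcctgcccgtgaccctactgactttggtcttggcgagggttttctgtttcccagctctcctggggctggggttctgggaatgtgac
Serpina1a promoter, chr12:103863570-103863869, minus strand: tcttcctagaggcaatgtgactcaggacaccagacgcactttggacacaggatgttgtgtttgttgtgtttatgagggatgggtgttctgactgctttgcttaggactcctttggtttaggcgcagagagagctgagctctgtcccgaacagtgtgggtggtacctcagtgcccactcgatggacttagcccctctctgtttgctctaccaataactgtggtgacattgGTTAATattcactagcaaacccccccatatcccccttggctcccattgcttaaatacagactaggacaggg
Serpina1b promoter, chr12:103738140-103738439, minus strand: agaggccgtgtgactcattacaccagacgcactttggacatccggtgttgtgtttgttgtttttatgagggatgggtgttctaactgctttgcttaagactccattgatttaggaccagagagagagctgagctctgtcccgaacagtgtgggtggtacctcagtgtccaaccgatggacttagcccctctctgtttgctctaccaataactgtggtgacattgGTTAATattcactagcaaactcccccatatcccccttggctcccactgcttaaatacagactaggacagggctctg
Serpina1d promoter, chr12:103773584-103773883, minus strand: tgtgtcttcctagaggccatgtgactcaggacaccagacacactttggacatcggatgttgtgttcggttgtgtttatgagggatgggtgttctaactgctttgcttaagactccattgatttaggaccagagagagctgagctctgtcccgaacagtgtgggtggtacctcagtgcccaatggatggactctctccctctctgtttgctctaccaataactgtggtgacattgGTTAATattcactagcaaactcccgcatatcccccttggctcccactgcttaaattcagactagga
F11 promoter, chr8:45261982-45262281, minus strand: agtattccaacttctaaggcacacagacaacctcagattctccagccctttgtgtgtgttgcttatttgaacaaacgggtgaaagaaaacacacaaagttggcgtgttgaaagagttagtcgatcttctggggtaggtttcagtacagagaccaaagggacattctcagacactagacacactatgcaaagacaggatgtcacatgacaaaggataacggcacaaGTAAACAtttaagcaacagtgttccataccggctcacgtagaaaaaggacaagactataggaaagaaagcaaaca

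In Vtn and the Serpina1 copies the capitals mark a match to GTTAAT, a part of the HNF1 site. It begins 21 bases before the start in Serpina1a, 26 before in Serpina1b and 16 before in Serpina1d, on the plus strand, and is at position -112 in Vtn, on the minus strand. Of the 26 tested genes with a promoter in the RefSeq table, 8 (30.8%) hold these letters on either strand, against 7.1% of all 32851 promoters. The 8 are F2, F13b, Fga, Itih1, Vtn and Serpina1a, Serpina1b and Serpina1d. The 3 Serpina1 promoters are copies of one another, 86.9% to 89.8% identical after alignment, so they do not count as separate occurrences. In F11 the capitals mark a match to TGTTTAC, a forkhead factor site, on the minus strand at position -25. It is in 2 of the 26 promoters (7.69%, F11 and Klkb1) and in 3.65% of all. The MEF2 site TAAAAATA, for the factors that class IIa deacetylases are known to bind, is in 1 of 26 (C9, 3.85%), against 2.72% of all. The cAMP response element TGACGTCA is in none of the 26 and in 1.79% of all. The HNF4 site CAAAGTCC is in none and in 1.42% of all. The C/EBP site TTGCGCAA is in none and in 0.183% of all. The motifs do not overlap in these windows, and a match or its absence describes these letters only.

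Median raw signals ran from 103.2 to 117, and 8455 to 10082 probes were detected per array. The most were detected in shHDAC45 cells with forskolin for 4 h (10082 and 9741). The fewest were detected in GFP cells with forskolin for 2 h (8455 and 8721), against 9176 and 9147 with DMSO for 2 h. Each array correlated best with the other array of its group in 16 of 16 cases. The targets of the shRNA were lower in shHDAC45 than in GFP cells, with log2 differences of -3.50 (SE 0.064) for Hdac5 and -1.49 (SE 0.10) for Hdac4. Of 13 hepatocyte markers 11 had a probe. Alb, Cyp2e1, Fabp1 and Tat were detected on no array, and the other 7, among them Ttr, Apoa1 and Trf, carried the label. Of those 7, 5 were lower, 1 higher and 1 not called in shHDAC45 cells on average. The 1 higher, Ass1, was higher under DMSO at both times and lower under forskolin at both times. The summed linear signal of these hepatocyte markers was 49140 to 62900 in shHDAC45 arrays, against 62700 to 77870 in GFP arrays. Stellate cell and fibroblast markers were higher for 5 of 5 (sums 10440 to 12520, against 7794 to 9219 in GFP arrays), with Des, Lrat, Lum and Pdgfrb never detected. Endothelial markers were higher for 5 of 5 (1258 to 2122, against 870.8 to 1262), with Clec4g, Kdr and Vwf never detected. Macrophage markers were lower for 5 and higher for 1 of 7 on average (3334 to 5240, against 4814 to 5584), with Cd5l, Clec4f and Timd4 never detected. By condition, 4 were lower and 2 higher under forskolin at 4 h, and 3 lower and 0 higher under forskolin at 2 h. Under DMSO, 4 were lower and 3 higher (Adgre1, Marco and Lyz2) at 4 h, and 6 lower and 0 higher at 2 h. Bile duct markers were lower for 3 of 3 (983.9 to 1391, against 2784 to 6778), with Epcam never detected. Of the leukocyte markers only S100a8 was tested, while Cd3e, Cd79a, Ptprc and S100a9 were never detected. S100a8 was higher on average, with overlapping ranges (29.66 to 134.2, against 28.87 to 48.23). By condition it was higher at 4 h (0.50 under forskolin and 2.12 under DMSO). At 2 h it was not called under forskolin (0.04) and was lower under DMSO (-0.52). The part of these shifts in the values below was not tested, and in such bulk RNA fewer hepatocytes and less RNA per hepatocyte cannot be told apart.

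Averaged over the 4 conditions, 32 of the 34 genes fell in shHDAC45 cells and 1, F11, rose. Across all genes tested 36.2% fell and 37.5% rose, so the members' falls were far above the background and their 1 rise far below it. The median difference of the 34 was -1.34, while that of all 7746 genes was 0. The distribution of differences shows the members to the left of the centre of all genes, between -3.59 for Vtn and 1.45 for F11. The remaining gene, Proc, the zymogen of the anticoagulant protein C, differed by 0.13 (SE 0.063, adjusted p = 0.071). For 23 of the 34 genes all 8 shHDAC45 arrays lay below all 8 GFP arrays (background 11.7%), and in 25 the fall passed the test in each of the 4 conditions (13%). Both counts include genes that were below background on some arrays.

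**Figure D1:**
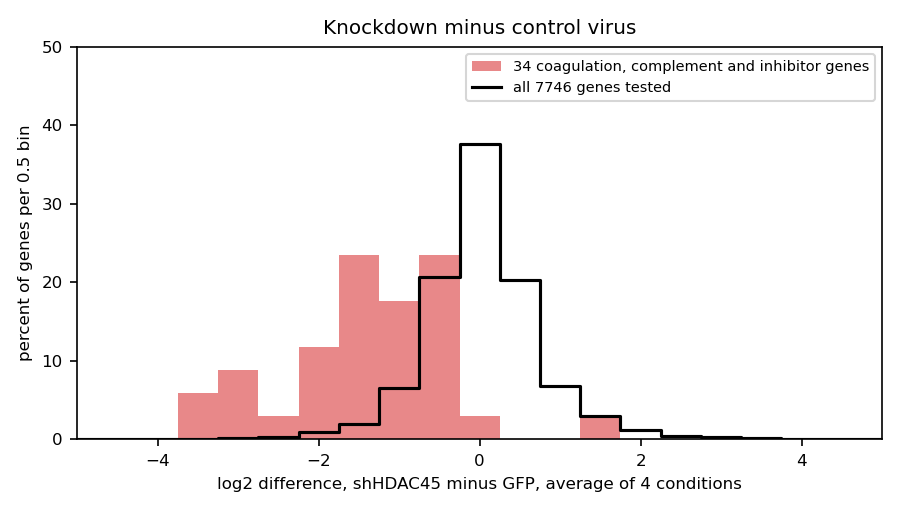
Percent of genes (vertical axis) per bin of 0.5 in the log2 difference of shHDAC45 minus GFP cells averaged over 4 conditions (horizontal axis), for the 34 coagulation, complement and inhibitor genes (filled bars) and all 7746 genes tested (line). The line is centred on 0, while all but 2 of the 34 genes lie below 0.

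A gene detected only on GFP arrays could pass the detection filter only because it was higher there. This was so for 6 genes: F7, F13b, Klkb1, C9, Masp1 and Mbl1. The 26 genes above background on all 16 arrays do not depend on that. Of these 26, 24 fell, against 37.9% of the 5808 genes detected on all 16 arrays, and their median difference was -1.37. In 18 of the 26 all shHDAC45 arrays lay below all GFP arrays (background 12.6%), and in 20 the fall passed in each of the 4 conditions (13.8%). By condition, forskolin for 4 h had 29 falls among the 34 genes (background 29%) and forskolin for 2 h had 28 (24.7%), while DMSO for 4 h had 32 (26.2%) and DMSO for 2 h had 28 (25%). These 4 comparisons share no array.

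**Figure D2:**
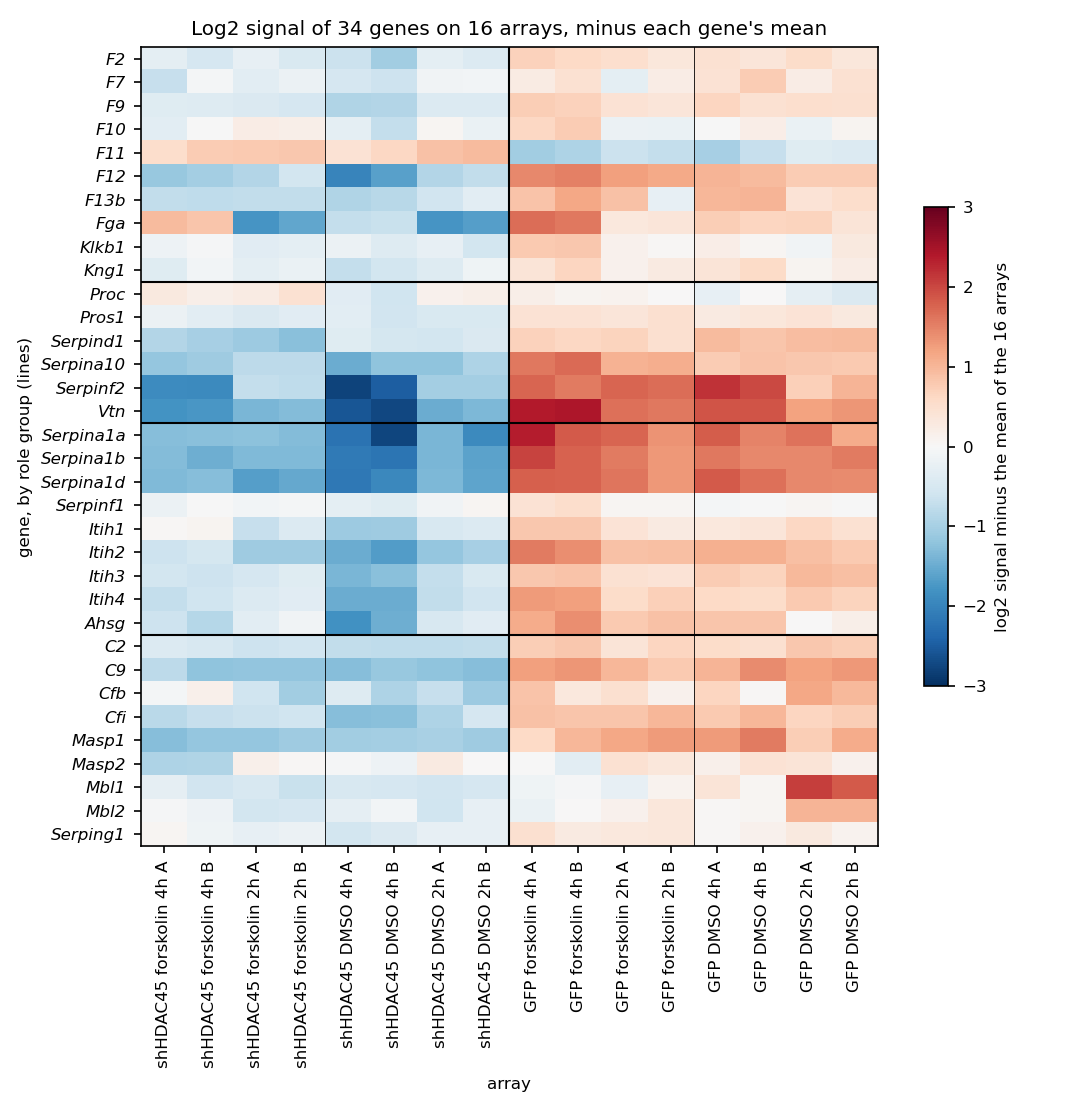
Log2 signal of the 34 genes (rows, in 4 role groups divided by lines: clotting factors, anticoagulant and fibrinolytic proteins, other protease inhibitors and carriers, complement) on the 16 arrays (columns, shHDAC45 left and GFP right), each minus the gene's mean over the arrays. Most rows are blue on the shHDAC45 side and red on the GFP side, F11 is reversed, and Vtn, Serpinf2 and the Serpina1 copies have the strongest contrast.

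Among the 10 clotting genes tested, 9 fell and F11 rose, with a median difference of -0.82 (36.2% of all genes fell and 37.5% rose). Of the 6 above background on all 16 arrays 5 fell, with a median over the 6 of -1.02. F12, which starts the contact pathway on negatively charged surfaces, had the largest fall of the group. Its log2 signal had a lowest, median and highest value of 7.37, 8.41 and 8.81 in shHDAC45 arrays, against 10.11, 10.43 and 10.85 in GFP arrays. The arrays did not overlap, and the difference was -2.20 (SE 0.066, 4.58-fold lower, adjusted p = 7.9e-12). A further F12 probe differed by -2.36. Fga, the alpha chain of fibrinogen, ran from 9.88 through a median of 10.51 to 12.59 in shHDAC45 arrays, and from 11.97 through 12.31 to 13.32 in GFP arrays. Here the groups overlapped, and the difference was -1.59 (SE 0.056, adjusted p = 3.4e-11) with -1.75 for its other probe. F9, the factor missing in haemophilia B, fell by 1.08, F2, the zymogen of thrombin, by 0.96, and Kng1, the kininogen that carries plasma kallikrein, by 0.67, all without overlap of arrays. The Kng1 signal lay near the top of the scale, where a difference may be compressed, and a further Kng1 probe was above background on no array.

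F11, the zymogen that factor XII activates, was the 1 member that rose. Its lowest, median and highest log2 signals were 9.58, 9.92 and 10.10 in shHDAC45 arrays, against 8.10, 8.45 and 8.78 in GFP arrays. All 8 shHDAC45 arrays lay above all 8 GFP arrays, and the difference was 1.45 (SE 0.061, 2.73-fold higher, adjusted p = 1.7e-10). A second F11 probe was above background on the 8 shHDAC45 arrays only and gave 1.25, which is likewise limited by background and not a measured fold. Klkb1, plasma prekallikrein, whose protease closely resembles factor XI, had a fitted difference of -0.54, but was above background only on the arrays of GFP cells with forskolin for 4 h. Under that condition it was at least 1.55-fold lower in shHDAC45 cells. F13b, the carrier subunit of factor XIII, and F7, the partner of tissue factor, were detected on GFP arrays only. F13b was at least 1.57-fold lower under forskolin and at least 1.26-fold lower under DMSO in shHDAC45 cells at 4 h, and F7 at least 1.19-fold and at least 1.12-fold. F7 was above background on 3 arrays in 3 groups, 1 array in each. Its bounds thus include a GFP array that did not detect it and are uncertain. F10, which converts prothrombin to thrombin, differed by -0.27 (SE 0.080, adjusted p = 0.0072) with overlapping arrays. Its fall passed the test at 4 h. The difference was -0.86 under forskolin. Under DMSO, where the shHDAC45 cells were below background, F10 was at least 1.42-fold lower (adjusted p = 0.006 for the fitted difference). At 2 h it differed by -0.02 under DMSO, and under forskolin, where the GFP cells were below background, it did not pass the test (adjusted p = 0.056). The averaged value includes both dim groups. The F10 call was lost when arrays were scaled to a common median in place of quantile normalisation.

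Of 6 anticoagulant and fibrinolytic genes tested, 5 fell, with a median of -1.84, against 36.2% of all genes. Without Serpinf2, which was above background on 15 of 16 arrays, 4 of 5 fell, with a median of -1.53. Vtn, the adhesion protein that stabilises the plasminogen activator inhibitor PAI-1, had the largest fall of the 34. Its lowest, median and highest log2 signals were 7.81, 8.93 and 9.25 in shHDAC45 arrays, against 11.76, 12.31 and 12.97 in GFP arrays. The groups were far apart, and the difference was -3.59 (SE 0.047, 12-fold lower, adjusted p = 2.9e-14). Serpinf2, alpha-2-antiplasmin, the main inhibitor of plasmin, gave 6.00, 7.33 and 8.06 in shHDAC45 arrays, against 9.49, 10.48 and 10.94 in GFP arrays. These did not overlap either, and the difference was -3.14 (SE 0.065, 8.84-fold lower, adjusted p = 3.7e-13). A dimmer second Serpinf2 probe, below background on all 8 shHDAC45 arrays, differed by -1.48, so its value is limited by background and is not a measured fold. Serpina10, the inhibitor of factor Xa that acts with protein Z, fell by 2.16 (SE 0.059), Serpind1, heparin cofactor II, by 1.53 (SE 0.054), and Pros1, the cofactor of activated protein C, by 0.76 (SE 0.053). All 3 were without overlap. Proc, whose product that cofactor serves, was higher by 0.50 under DMSO at 2 h (adjusted p = 0.0051) and differed by -0.37 under DMSO at 4 h (adjusted p = 0.024), and did not pass the test under forskolin (0.11 at 4 h and 0.30 at 2 h).

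All 9 other protease inhibitors and carriers tested fell, with a median of -1.59, and all 9 were above background on all 16 arrays. The Serpina1 genes encode alpha-1-antitrypsin, the chief inhibitor of neutrophil elastase, in several mouse copies. Serpina1b had 11.20, 11.98 and 12.11 as lowest, median and highest log2 signal in shHDAC45 arrays, against 14.71, 14.96 and 15.43 in GFP arrays. Serpina1d had 11.43, 12.01 and 12.30 in shHDAC45 arrays, against 14.88, 15.20 and 15.41 in GFP arrays, and Serpina1a had 8.60, 10.03 and 10.13, against 12.48, 13.05 and 13.71. In all 3 the arrays were far apart, and the differences were -3.17 (SE 0.065), -3.20 (SE 0.064) and -3.33 (SE 0.12) for Serpina1b, Serpina1d and Serpina1a. Other probes gave -3.83 for Serpina1b and -3.50 for Serpina1a. RNA of one copy may bind the probe of another, so the values cannot be assigned to single copies. Raw signals reached 45864.7 for Serpina1d and 42332.5 for Serpina1b, against a highest value of 66663.8 for any probe, so these differences too may be compressed.

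The inter-alpha-trypsin inhibitor heavy chains, some of which are bound to hyaluronan in the matrix, fell as a group of 4. Itih2 fell by 2.15 (SE 0.052), Itih4 by 1.59 (SE 0.050), Itih3 by 1.45 (SE 0.053) and Itih1 by 1.01 (SE 0.056). None of the 4 had overlapping arrays. Ahsg, fetuin-A, a carrier of calcium phosphate, fell by 1.51 (SE 0.073), without overlap. Serpinf1, pigment epithelium-derived factor, a serpin without inhibitory activity, fell least, by 0.26 (SE 0.048, adjusted p = 0.00034), and its arrays overlapped.

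**Figure D3:**
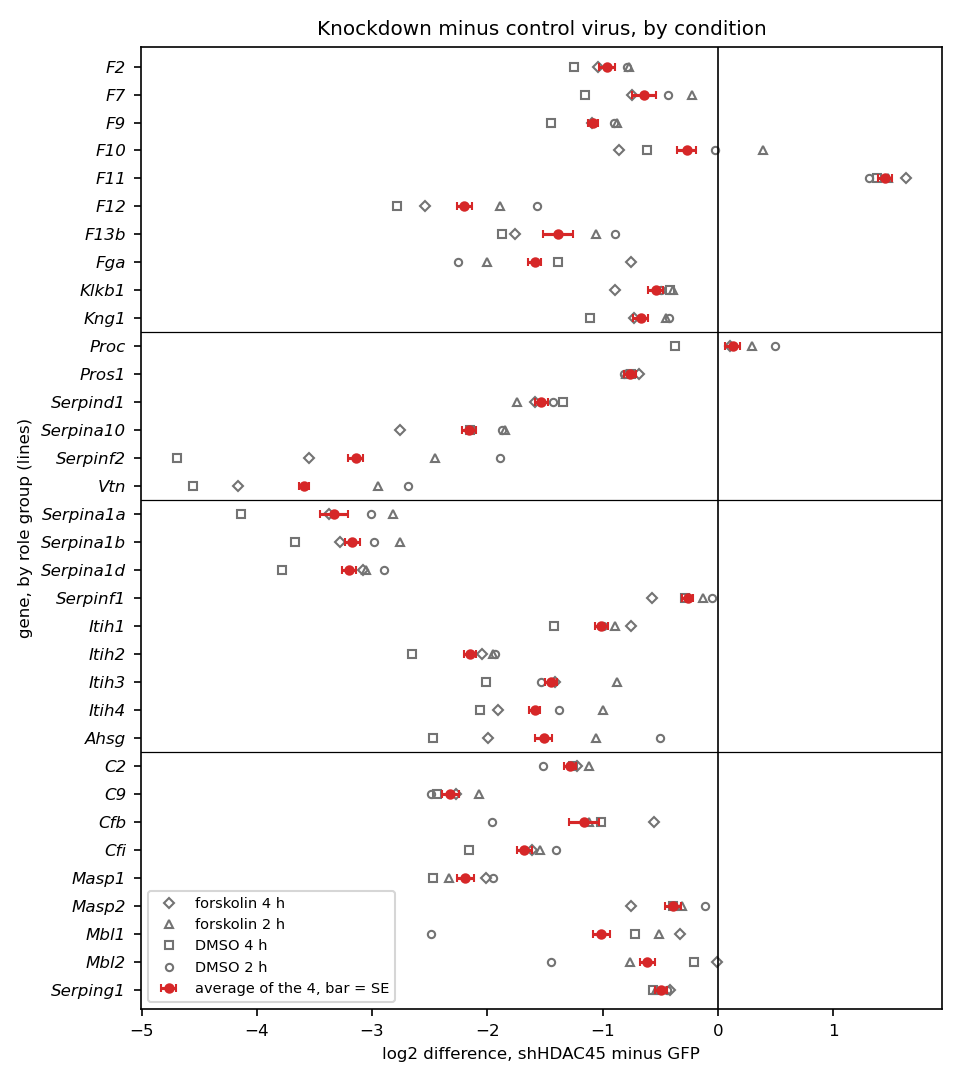
Log2 difference of shHDAC45 minus GFP cells (horizontal axis) for the 34 genes (rows, by role group), as the average of 4 conditions with its SE (filled circles) and in each condition (open symbols). F11 is right of 0 in every condition, Vtn and Serpinf2 spread most widely among the genes far left, and Mbl1 and Mbl2 lie farthest left under DMSO at 2 h.

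All 9 complement genes tested fell, with a median of -1.16, against 36.2% of all genes. C9, Masp1 and Mbl1 passed the detection filter through GFP arrays alone, and the other 6 had a median of -0.88. C9, which forms the pore of the membrane attack complex, and Masp1, a protease of the lectin pathway, were above background on all 8 GFP arrays and on no shHDAC45 array. Each had a further probe that was above background on no array. C9 was lower in shHDAC45 cells at least 2.61-fold under forskolin at 4 h, 1.55-fold under forskolin at 2 h, 2.03-fold under DMSO at 4 h and 2.03-fold under DMSO at 2 h. For Masp1 the bounds were 1.63-fold under forskolin at 4 h, 1.70-fold under forskolin at 2 h, 2.02-fold under DMSO at 4 h and 1.40-fold under DMSO at 2 h. Cfi, the protease that inactivates C3b and C4b, fell by 1.68 (SE 0.065) and C2, a subunit of the classical C3 convertase, by 1.28 (SE 0.050), both without overlap. Cfb, the factor B of the alternative pathway, fell by 1.16 (SE 0.13) with overlap, and under forskolin at 4 h its difference of -0.55 missed the threshold (adjusted p = 0.086). Smaller falls were those of Mbl2 (-0.61), Serping1 (-0.49) and Masp2 (-0.39), whose arrays overlapped. Serping1 encodes the C1 inhibitor, Masp2 the protease that cleaves C4 in the lectin pathway, and Mbl1 and Mbl2 the mannose-binding lectins that start it.

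The knockdown difference was not the same in all conditions. Vtn was 17.9-fold lower under forskolin at 4 h and 7.73-fold lower under forskolin at 2 h, and 23.4-fold lower under DMSO at 4 h and 6.47-fold lower under DMSO at 2 h. For Serpinf2 these folds were 11.7, 5.46, 25.8 and 3.71 in the same order. Under DMSO at 4 h its signal in shHDAC45 cells was above background on 1 of 2 arrays, so the size of the 25.8-fold difference, and of others that use that group, is uncertain. Mbl2 passed the test at 2 h, with -0.76 under forskolin and -1.45 under DMSO. At 4 h it differed by -0.01 under forskolin and -0.21 under DMSO (adjusted p = 0.95 and 0.19). Mbl1 was above background only on the 2 arrays of GFP cells under DMSO at 2 h, and under that condition it was at least 1.80-fold lower in shHDAC45 cells.

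**Figure D4:**
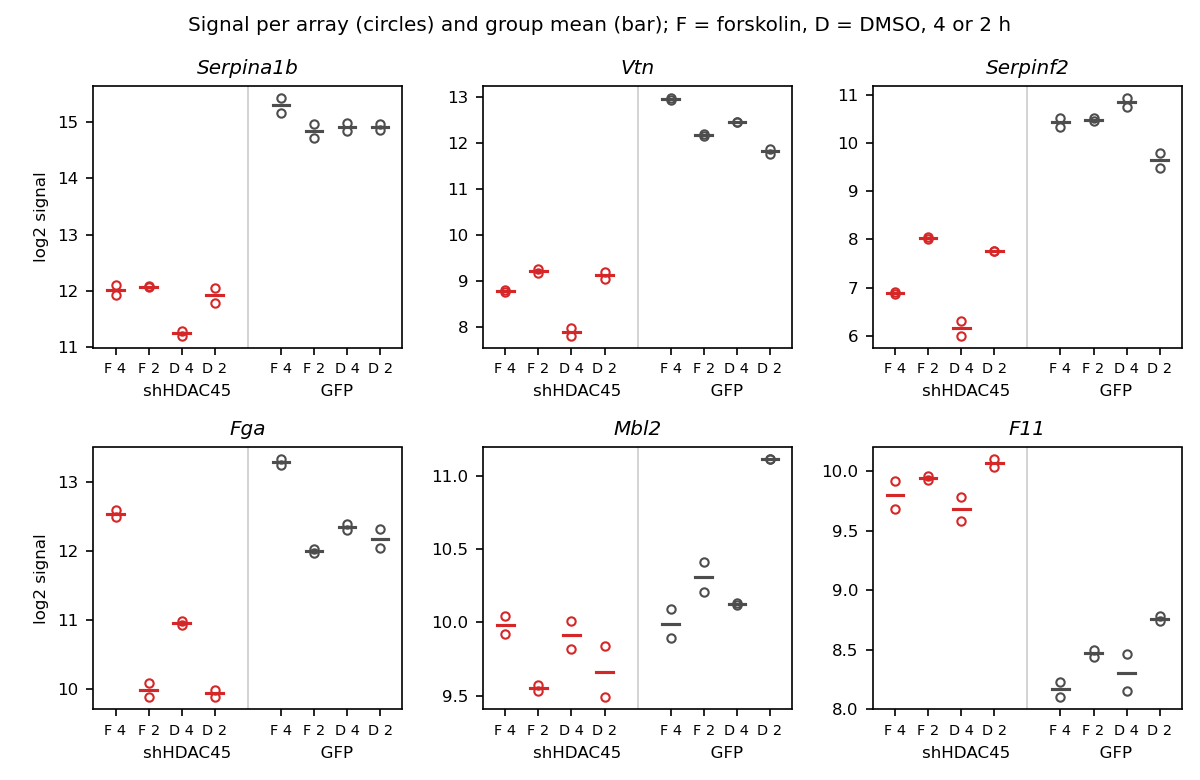
Log2 signal (vertical axes, 1 panel per gene) of Serpina1b, Vtn, Serpinf2, Fga, Mbl2 and F11 on each array (circles) with the mean of the 2 arrays (bars), for shHDAC45 cells on the left and GFP cells on the right of each panel, under forskolin (F) and DMSO (D) for 4 or 2 h. Vtn and Serpinf2 in shHDAC45 cells are lowest under DMSO at 4 h, Fga in shHDAC45 cells is highest under forskolin at 4 h, and Mbl2 is highest in GFP cells under DMSO at 2 h.

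The DMSO cells themselves differed between 4 h and 2 h. In shHDAC45 cells 13 members were lower at 4 h than at 2 h (background 4.16%) and 1, Fga, was higher (4.48%). Of the 13, 7 were inhibitors and carriers, of 9 tested. In GFP cells 4 members were higher (6.04%) and 3 lower (5.67%), and of the members called 57.1% were higher, against 42.9% with median scaling. Without array A of GFP cells under DMSO at 2 h, 3 members were called in place of 7. Serpinf2 had 6.00 and 6.31 at 4 h, against 7.75 and 7.75 at 2 h, in shHDAC45 cells under DMSO, and 10.94 and 10.75, against 9.49 and 9.80, in GFP cells under DMSO. It thus fell in the shHDAC45 cells (-1.59, adjusted p = 6.8e-06) and rose in the GFP cells (1.20, adjusted p = 5.6e-05), with no overlap in either. Vtn moved likewise, by -1.23 in shHDAC45 and 0.62 in GFP cells, as did Ahsg, by -1.23 and 0.74. Fga rose by 1.02 in shHDAC45 cells (adjusted p = 9.4e-05) and differed by 0.16 in GFP cells (adjusted p = 0.41). Mbl2 fell by 0.99 in GFP cells and differed by 0.25 in shHDAC45 cells.

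The difference between the viruses in this DMSO change was tested itself, as a contrast added after these values had been seen. It was negative for 12 members (background 5.65%) and positive for 3 (5.37%), so that 20% of the calls were positive, against 33.3% with median scaling. The largest were Serpinf2 (-2.80, SE 0.19, adjusted p = 4.1e-07), Ahsg (-1.97, SE 0.21), Vtn (-1.85, SE 0.13) and F12 (-1.21, SE 0.19), while Mbl1 (1.77, SE 0.22), Mbl2 (1.23, SE 0.18) and Fga (0.86, SE 0.16) were positive. The Mbl1 value sets a group above background against 3 below it, so its size is not a measured fold. The labels name nothing that sets the DMSO groups apart other than virus and hours, and the groups were kept as labelled. Whether DMSO arrays were exchanged or handled apart was not tested, and that would bear on every value that uses them. Among liver regulators, Il1b, which encodes the acute-phase cytokine interleukin-1 beta, averaged 9.51 at 4 h, against 6.34 at 2 h, in shHDAC45 cells under DMSO, and 4.89 at 4 h, against 8.81 at 2 h, in GFP cells under DMSO. The part of this shift in the members' values was not tested.

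Forskolin at 4 h was accompanied by rises in both kinds of cell. In shHDAC45 cells 20 of 34 members rose (background 17.4%) and 2 fell (18.0%), with a median difference of 0.44. In GFP cells 12 rose (14.4%) and 3 fell (17.7%), with a median of 0.23. Of the 9 inhibitors and carriers, 8 rose in shHDAC45 and 6 in GFP cells. Of the 9 complement genes, 4 rose and 1 fell in shHDAC45 cells, and 2 fell in GFP cells. The split in GFP cells depends on scaling: with arrays scaled to a common median, 62.5% of the members called were higher, in place of 80%, among 8 calls in place of 15. For all genes called, the same scaling gave 30.7% higher in place of 44.8%.

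Fga had the largest rise in both. In shHDAC45 cells it had log2 signals of 12.59 and 12.48 under forskolin at 4 h, against 10.93 and 10.98 under DMSO, and in GFP cells 13.32 and 13.24, against 12.39 and 12.30. The forskolin arrays were above the DMSO arrays in both, by 1.58 (SE 0.11, adjusted p = 4.9e-07) in shHDAC45 and 0.94 (SE 0.11, adjusted p = 3.4e-05) in GFP cells. The other large rises in shHDAC45 cells were those of Serpina1a, Itih1 and Itih2. Serpina1a had 10.08 and 10.10 under forskolin, against 9.14 and 8.60 under DMSO (1.22, SE 0.25, adjusted p = 0.0022). Itih1 had 8.77 and 8.81, against 7.65 and 7.68 (1.13, SE 0.11), and Itih2 had 11.58 and 11.67, against 10.71 and 10.54 (1.00, SE 0.10). None of these pairs of arrays overlapped, and Itih1 and Itih2 also rose in GFP cells, by 0.47 and 0.40.

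In GFP cells the next rises were those of Serpina10, Itih4 and Klkb1. Serpina10 had 11.02 and 11.13 under forskolin at 4 h, against 10.19 and 10.29 under DMSO (0.83, SE 0.12, adjusted p = 0.00015). Itih4 had 11.79 and 11.74, against 11.11 and 11.07 (0.67, SE 0.10, adjusted p = 0.00022). Klkb1 was above background in the forskolin arrays only, with 6.72 and 6.76, against 6.13 and 6.01 in DMSO arrays, and was at least 1.07-fold higher. Itih4 also rose in shHDAC45 cells, by 0.83, while Serpina10 differed there by 0.22 (adjusted p = 0.16).

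Both kinds of cell had a lower Masp2 after 4 h of forskolin. It had 7.04 and 7.06 under forskolin, against 7.93 and 7.81 under DMSO, in shHDAC45 cells (-0.82, SE 0.14, adjusted p = 0.00071), and 7.95 and 7.65, against 8.13 and 8.40, in GFP cells (-0.46, SE 0.14, adjusted p = 0.024). Masp1 fell in GFP cells, with 6.63 and 7.01, against 7.31 and 7.59 (-0.63, SE 0.15), and was below background in shHDAC45 cells. Serpinf2 fell in GFP cells, with 10.52 and 10.34, against 10.94 and 10.75 (-0.42, SE 0.13), and rose in shHDAC45 cells, with 6.90 and 6.86, against 6.00 and 6.31 (0.72, SE 0.13). Serpind1 fell in shHDAC45 cells at both times. It had 7.80 and 7.67, against 8.30 and 8.14, at 4 h (-0.48, SE 0.11), and 7.58 and 7.42, against 8.12 and 8.24, at 2 h (-0.68, SE 0.11).

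At 2 h, Serpind1 was the 1 member called in shHDAC45 cells (fall, background 2.52%), and with limma 0 rose (2.29%), while at an unadjusted p under 0.05 there were 3 higher and 1 lower. With limma on the 4 compared arrays alone 0 were called, and 1 was higher and 1 lower at an unadjusted p under 0.05. In GFP cells 5 members rose (10.6%) and 4 fell (10.8%), shares near those of all genes. Serpinf2 had 10.53 and 10.45 under forskolin, against 9.49 and 9.80 under DMSO (0.84, SE 0.13, adjusted p = 5e-04), and Ahsg had 12.95 and 13.04, against 12.16 and 12.34 (0.75, SE 0.15). F12, with 10.57 and 10.49, against 10.11 and 10.11, rose by 0.42, Proc, with 11.63 and 11.52, against 11.26 and 11.09, by 0.40, and Vtn by 0.35. None of the first 4 overlapped. Mbl1 had 5.11 and 5.47 under forskolin, below background, against 7.43 and 7.19 under DMSO, and was at least 1.48-fold lower. The limma adjusted p of 6.1e-07 belongs to its fitted difference of -2.02, not to this bound. Mbl1 passed the detection filter only through these DMSO arrays, so its place among the 4 falls is no support for a fall. Mbl2 had 10.21 and 10.41, against 11.11 and 11.11 (-0.80, SE 0.13), Itih3 had 10.21 and 10.17, against 10.74 and 10.66 (-0.51, SE 0.11), and Serpind1 had 9.33 and 9.16, against 9.60 and 9.63 (-0.37, SE 0.11). Median scaling turned this split round, since 15.4% of the members called were then higher, in place of 55.6%, as were 13.9% of all genes called, in place of 49.5%. That scaling also moved the median of all genes to -0.26. Without array A or array B of GFP cells under DMSO at 2 h, 4 and 5 members were called in place of 9.

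**Figure D5:**
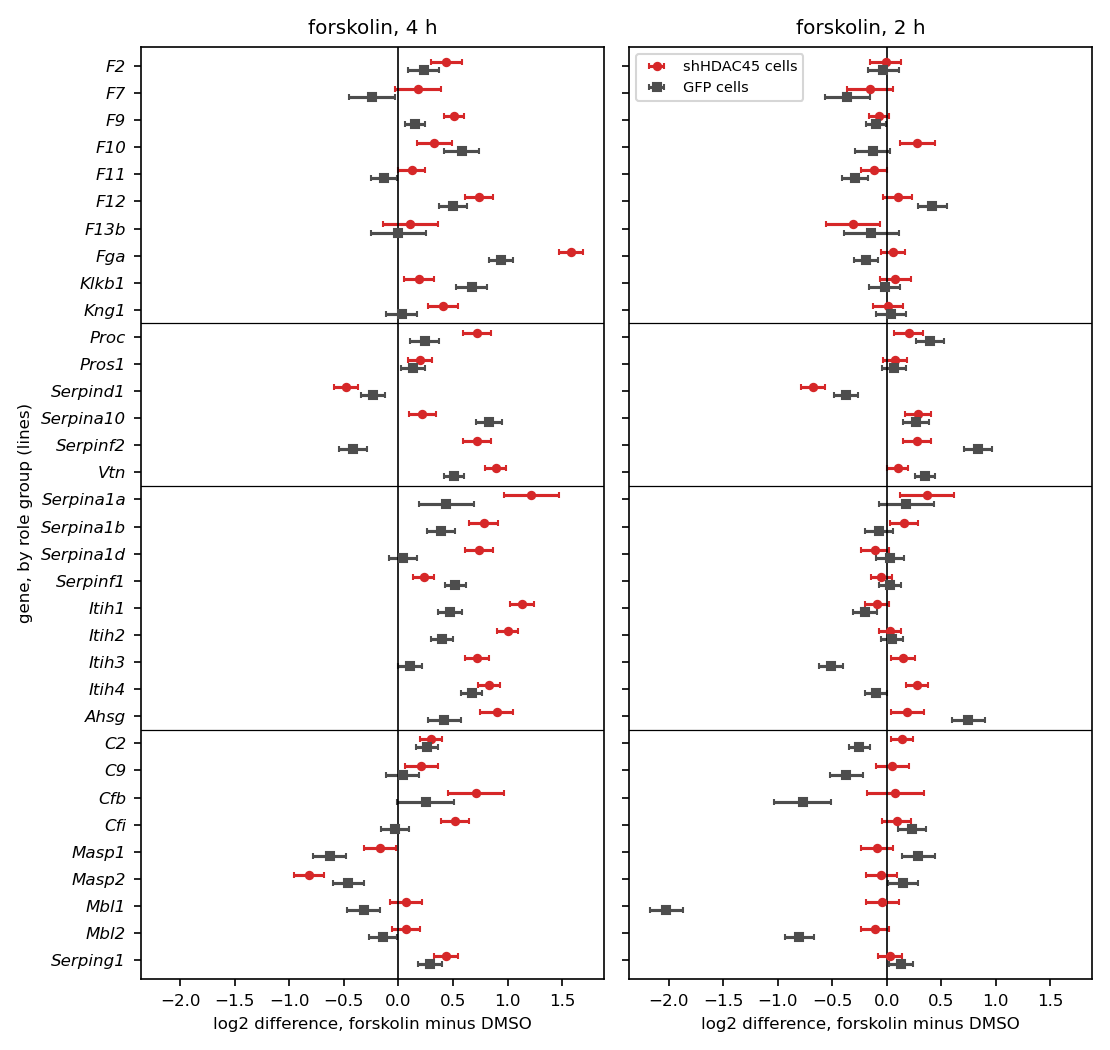
Log2 difference of forskolin minus DMSO with its SE (horizontal axes) for the 34 genes (rows, by role group) in shHDAC45 cells (circles) and GFP cells (squares), at 4 h (left panel) and 2 h (right panel). At 4 h most circles lie right of 0 with Fga farthest, at 1.58, and at 2 h most symbols lie near 0, with Mbl1 in GFP cells farthest left, at a fitted value of -2.02 that sets a group below background against one above it.

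Because the DMSO arrays differed by time, each forskolin group was also set against the DMSO arrays of the other time. For shHDAC45 cells at 4 h, 5 members then rose (background 20.0%) in place of 20, and these 5, Fga, Itih1, Itih2, C2 and Cfb, were among the 20. In that setting Fga differed by 2.60, while Serpinf2 (-0.87) and Vtn (-0.34) fell and Ahsg (-0.33) and F12 (-0.26) turned negative. For shHDAC45 cells at 2 h, 17 members rose (9.33%) in place of 0. For GFP cells at 4 h, 15 rose (18.3%), of which 11 were among the 12 above, and Serpinf2 rose by 0.78 where it had fallen. For GFP cells at 2 h, 0 rose with limma (6.64%) and 1, Fga, fell (9.57%), with 2 higher and 9 lower at an unadjusted p under 0.05, and Mbl2 (0.19), Serpinf2 (-0.36) and Vtn (-0.27) changed sign. For the other 15 of the 20 genes that rose in shHDAC45 cells at 4 h, the rise passed the test only against the DMSO arrays of the same time.

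The forskolin effect differed between shHDAC45 and GFP cells, by the test of the difference, for 7 members at 4 h and 3 at 2 h. At 4 h it was more positive in shHDAC45 cells for 6 (background 4.80%) and more negative for 1 (3.77%). The 4 largest were Serpinf2 (1.14, SE 0.19, adjusted p = 0.002), Serpina1d (0.70, SE 0.18), Itih1 (0.66, SE 0.16) and Fga (0.64, SE 0.16), and the 1 negative was Serpina10 (-0.61, SE 0.17, adjusted p = 0.042). At 2 h it was more positive for 3 (3.12%), Mbl1 (1.98, SE 0.22), Mbl2 (0.68, SE 0.18) and Itih3 (0.66, SE 0.15), and more negative for 0 with limma (2.84%) or 2 at an unadjusted p under 0.05. The Mbl1 value again rests on the 1 group above background. With median scaling 100% of the calls at 4 h were positive in place of 85.7%, and without background correction 75% of those at 2 h in place of 100%. These counts change with single arrays. At 4 h the count was between 1 and 4 when any of the 8 arrays compared was left out, with 1 without array A of GFP cells under DMSO or array B of GFP cells under forskolin. At 2 h it was 1 without array B of GFP cells under DMSO, array A of shHDAC45 cells under DMSO or array B of shHDAC45 cells under forskolin. Without array A of GFP cells under DMSO at 2 h it was 0 with limma, and 4 were positive at an unadjusted p under 0.05.

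Between the times, the forskolin effect was more positive at 4 h than at 2 h for 11 members in shHDAC45 cells (background 9.26%) and more negative for 1 (10.6%), and for 11 (12.6%) and 3 (14.0%) in GFP cells. Fga had the largest positive difference above background in both, 1.52 (SE 0.16) in shHDAC45 and 1.13 (SE 0.16) in GFP cells. Itih1 followed in shHDAC45 cells, at 1.22 (SE 0.16). The 1 negative in shHDAC45 cells was Masp2, at -0.77, and those in GFP cells were Serpinf2, Masp1 and Masp2, at -1.26, -0.92 and -0.61. In shHDAC45 cells 7 members were called in place of 12 without array B under DMSO at 2 h, and 6 without array A under forskolin at 2 h. In GFP cells 9 were called in place of 14 without array B under DMSO at 2 h, and 8 without array B under forskolin at 4 h.

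A wider list of 69 other coagulation, fibrinolysis and complement genes held 34 tested genes, of which 22 were lower and 8 higher in shHDAC45 cells, with a median difference of -0.44, against 36.2% lower and 37.5% higher of all genes. The largest differences were those of Mug2 (-2.69) and Mug1 (-1.68), the murinoglobulins, which trap proteases, Apoh (-1.96), which binds phospholipid, and Habp2 (-1.81), the factor VII-activating protease. Those that rose included Cd55 (1.25), which protects cells from complement, and Plaur (1.10), the urokinase receptor. Of 27 liver factors and cytokine-signal genes known for such promoters, 20 were tested, of which 9 were lower and 9 higher, with a median of 0.03, shares near those of all genes (36.2% and 37.5%). Hnf4a, the nuclear receptor HNF4, fell by 1.96 (SE 0.059) and Dbp, a clock-driven activator, by 1.67. Nr1h4, the bile acid receptor, fell by 1.60. Il1b was higher by 1.72 on average, but its direction differed by condition. It was lower under DMSO at 2 h (-2.47), and higher under DMSO at 4 h (4.62) and under forskolin at both times. The 9 higher on average were Foxa1, Cebpb, Cebpd, Socs3, Il6, Il1b, Osmr, Rela and Nfkbia. Of these, Cebpb was lower under forskolin at 2 h. The 9 lower on average were Hnf4a, Foxa2, Foxa3, Cebpa, Nr5a2, Prox1, Dbp, Nr1h4 and Il6st.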

How the data were processed

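The authors deposited 1 table of summarised bead intensities with a detection p-value per probe and array, and 1 normalised table. Per the file headers, the first holds linear signal intensities and p-values of 16 arrays, and the submitters' processing notes name GenomeStudio, whose version is not given in the sources used here. The deposited normalised table holds linear intensities, with its normalisation not stated, and served as an alternative. Columns of no sample used here numbered 0.

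From these, limma 3.58.1 in R 4.3.3 applied neqc with an offset of 16, which is normexp background correction with negative-control estimates taken from the detection p-values, quantile normalisation and log2. Of 24613 probes, 20984 name 1 gene, 1 several and 3628 none in the platform annotation, and symbols were looked up through Entrez for 20968, with 0 changed, and kept for 16. A probe was kept where its detection p was below 0.01 on 2 or more arrays, which 10439 were, and a gene was taken from its brightest probe. This gave 7746 genes, of which 1293 had several probes. One model held 8 group means of 2 arrays, with 8 residual and 4.6 prior degrees of freedom, and p-values were adjusted by Benjamini-Hochberg over all genes within each of 16 contrasts. An average of 2 arrays limits the precision of every value. Where 1 group was below background, the fold is a bound, set against the higher of the dim signal and the lowest signal among detected probes.

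The genes, the comparison lists and the tests were chosen with earlier results of these data known. Every member could be named. Signals are given for the 4 members with the largest rise and the 4 with the largest fall past the threshold in each forskolin contrast, array by array, and in the averaged shHDAC45 contrast, as the lowest, median and highest of 8 arrays. The interaction of virus and DMSO time, and the filter on detection on all 16 arrays, were added after seeing the data. The procedure was tested on simulated data. Promoters are from RefSeq (GRCm38.p6).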

Additional observations from a re-analysis of the deposited data

Results flagged for a closer look

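These values are listed because the response of 1 set of cells differed from that of the other set in a test of the difference itself, limma over all genes. In none of them was the cause tested.

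The forskolin effect in shHDAC45 minus that in GFP cells at 4 h was 1.14 for Serpinf2, 0.70 for Serpina1d, 0.66 for Itih1, 0.64 for Fga and -0.61 for Serpina10. At 2 h it was 1.98 for Mbl1, 0.68 for Mbl2 and 0.66 for Itih3. Both counts of such genes change when single arrays are left out, as given above.

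The change under DMSO between 2 h and 4 h in shHDAC45 minus that in GFP cells was -2.80 for Serpinf2, -1.97 for Ahsg, -1.85 for Vtn and -1.21 for F12, and 1.77 for Mbl1, 1.23 for Mbl2 and 0.86 for Fga. For Mbl1 only the GFP arrays under DMSO at 2 h were above background, so both of its values above depend on that group. For Serpinf2, 1 of 2 shHDAC45 arrays under DMSO at 4 h was above background, which bears on both of its values.

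The forskolin effect at 4 h differed from that at 2 h for 12 members in shHDAC45 cells and 14 in GFP cells.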

How the results depend on the processing

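The alternatives were no background correction, median scaling, the authors' normalised table, other filters on dim probes, the mean of a gene's probes, only the compared arrays, a trended robust prior, the array letter as a block, and each array left out. The knockdown calls moved least. Of the 33 members called on average 32 stayed past the threshold in the same direction under every alternative that gave them a value, as did 28 of 30 under forskolin at 4 h, 25 of 29 under forskolin at 2 h, 27 of 33 under DMSO at 4 h and 25 of 30 under DMSO at 2 h. For forskolin over DMSO this held for 4 of 22 in shHDAC45 cells and 4 of 15 in GFP cells at 4 h, and for none of 1 and none of 9 at 2 h, where the DMSO arrays of the other time are among the alternatives. For the interaction of virus and forskolin it held for 0 of 7 at 4 h and 1 of 3 at 2 h. The 1 was Mbl1, which had a value under 23 alternatives, against 26 for Itih3 and Mbl2. Leaving out either array of GFP cells under DMSO at 2 h removed Mbl1 from the tests, so its call was not tested there. The filter on detection on every array gave no value to the 8 members above background on fewer arrays. It thus did not test their knockdown calls.

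With DMSO arrays of the other time the forskolin counts were 9 in shHDAC45 cells and 19 in GFP cells at 4 h, in place of 22 and 15, and 19 and 1 at 2 h, in place of 1 and 9. The members that changed sign there were, in shHDAC45 cells at 4 h, Serpinf2 (-0.87), Vtn (-0.34), Ahsg (-0.33), F12 (-0.26), F2 (-0.06), Cfi (-0.03) and Itih4 (0.00), in GFP cells at 4 h Serpinf2 (0.78), and in GFP cells at 2 h Serpinf2 (-0.36), Vtn (-0.27) and Mbl2 (0.19). Median scaling left 8 calls for forskolin in GFP cells at 4 h in place of 15. With only the compared arrays, 0 members were called for forskolin in shHDAC45 cells at 2 h in place of 1, and 1 for the interaction at 2 h in place of 3. With genes detected on all 16 arrays, 4 were called for the DMSO times in GFP cells in place of 7.

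Leaving out 1 array, with the lone array of that group assumed to vary like the other groups, gave 32 to 34 members called for the knockdown on average, 28 to 30 and 26 to 30 under forskolin at 4 h and 2 h, and 27 to 33 and 25 to 30 under DMSO at 4 h and 2 h. Forskolin counts ran from 18 to 22 and 1 to 1 in shHDAC45 cells at 4 h and 2 h, and from 10 to 15 and 4 to 10 in GFP cells. Counts for DMSO 4 h over 2 h ran from 10 to 16 in shHDAC45 and 3 to 7 in GFP cells. Interaction counts ran from 1 to 8 at 4 h and 0 to 3 at 2 h for virus and forskolin, from 6 to 12 in shHDAC45 and 8 to 15 in GFP cells for forskolin and time, and from 12 to 16 for virus and DMSO time.

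The main model did not pair arrays by the letters A and B. Over 28 pairs of groups the correlation of deviations ran from 0.052 to 0.30, with a median of 0.22 and 4 at or under 0.1. All were thus above 0, and what the letters stand for was not tested. With the letter as a replicate block the counts were 22 and 1 for forskolin in shHDAC45 cells at 4 h and 2 h, 16 and 10 in GFP cells, 33 for the knockdown on average, 9 and 4 for the interaction of virus and forskolin at 4 h and 2 h, and 20 for that of virus and DMSO time. Signals near background limit C9, Masp1, Klkb1, F7, F13b, Mbl1, F10 and, in shHDAC45 cells under DMSO at 4 h, Serpinf2, and signals near the top of the scale limit Serpina1d, Serpina1b and Kng1.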
